A study of Mus musculus with 13 samples.

Results

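The genes that encode splicing factors and heterogeneous nuclear ribonucleoproteins (hnRNPs) were examined for R-loops, which form where nascent RNA pairs with its DNA template and leaves the other DNA strand unpaired. The set was every protein-coding gene of the mouse annotation (GENCODE vM1, build mm9) whose symbol begins with Hnrnp, Srsf, Sf3a, Sf3b, Snrp, Prpf or U2af followed by its family number or letter, with 1 Snrp gene left out by the rule. This gave 64 genes of the 22367 protein-coding genes on chromosomes 1 to 19, X and Y. There were 18 genes of hnRNP proteins, 11 of SR proteins, 8 of SF3a and SF3b proteins, 11 of Sm and other snRNP proteins, 13 of Prpf factors and 3 of U2af proteins.

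Pre-mRNA splicing removes introns and joins exons. The U1 snRNP binds the 5′ splice site, U2AF and the U2 snRNP with its SF3a and SF3b proteins define the branch point and the 3′ splice site, and PRPF proteins serve in the assembly and activation of the spliceosome. SR proteins mostly promote and hnRNP proteins often restrain the use of nearby exons, and both coat nascent RNA, whose packaging is known to limit its return to the DNA template. Many of these genes are transcribed strongly in growing cells, and R-loops are known to be frequent at CpG-rich starts of active genes.

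R-loops were mapped by DRIP-seq in N2a cells, a mouse neuroblastoma line, transfected with scramble siRNA, siRNA against DDX1 or siRNA against EXOSC3. DDX1 belongs to the DEAD-box helicases, and EXOSC3 sits in the cap of the RNA exosome. Genomic DNA was cut with BsrGI, EcoRI, HindIII, SspI and XbaI, hybrids were captured with the S9.6 antibody, and DNA digested with RNase H beforehand served as the negative control. There were 3 untreated libraries labelled siScramble, 3 labelled siDDX1 and 3 labelled siEXOSC3, with 1 RNase H-digested library for each label. By the labels, the siScramble cells were wild type and the others carried a DDX1 or EXOSC3 knockdown. Each depletion was a pooled knockdown in 1 cell line, and neither the knockdown nor the identity of the cells can be read from peak lists. Titles and peak names conflicted in 12 of 12 lists: the peaks of lists titled siScramble carry the name siDDX1, those titled siDDX1 the name siEXOSC3, and those titled siEXOSC3 the name siScramble. Groups here follow the titles. By the peak names, a comparison printed here as siEXOSC3 against siScramble would be control against siDDX1, one printed as siDDX1 against siScramble would set the knockdowns against each other, and one printed as siEXOSC3 against siDDX1 would be control against siEXOSC3. Counts over all 9 untreated libraries, the test across all 3 groups and the comparison with RNase H do not depend on which names are right. Where 3 values are given for a label, they are in the order of replicate number.

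The peak lists held 23882 to 42571 peaks in the untreated and 3811 to 8034 in the RNase H-digested libraries, and they hold no read counts. For each gene, the covered length was the number of bases under a peak within the gene and 1 kb on either side. A peak call does not tell how many cells or alleles carried a hybrid, nor from which strand it came. Another protein-coding gene lay within the window of 34 of the 64 genes, and 22 had an opposite-strand protein-coding start within 1 kb of their own, so peaks there cannot be given to 1 gene.

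Several of these genes carry long runs of guanine on the sense strand inside introns that lay under a peak in every untreated library. The 60-base stretches richest in such runs are given in the direction of transcription, because a G-rich nontemplate strand is a known feature of R-loop-forming sequence. Capitals mark runs of 3 or more G. The stretches lie in introns at chr2:162757918-162757977 (plus strand), chr11:50191941-50192000 (plus strand), chr13:58502961-58503020 (minus strand) and chr1:180266947-180267006 (minus strand) of mm9.
Srsf6: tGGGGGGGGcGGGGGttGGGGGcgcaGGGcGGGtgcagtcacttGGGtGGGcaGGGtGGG
Hnrnph1: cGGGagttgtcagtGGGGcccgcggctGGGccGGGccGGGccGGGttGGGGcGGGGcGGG
Hnrnpk: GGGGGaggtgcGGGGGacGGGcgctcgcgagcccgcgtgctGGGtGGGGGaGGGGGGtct
Hnrnpu: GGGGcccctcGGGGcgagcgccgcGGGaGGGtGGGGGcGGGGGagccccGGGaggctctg
The Srsf6 stretch had 36 of its 60 bases in G runs, that of Hnrnph1 30, and those of Hnrnpk and Hnrnpu 27 each. Windows of 60 bases with at least 24 bases in such runs made up 0.271% of the intronic windows under a peak in all 9 untreated libraries (149 of 54996) and 0.0515% of those under a peak in none (269 of 522379), over all 64 genes. These windows overlap one another.

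The genes were under a peak more often than genes in general. A peak lay over the window in all 9 untreated libraries in 52 of the 64 genes (81.2%), where 26.2% of all protein-coding genes had one. In the single libraries, 55 to 62 of the 64 genes carried a peak, a share of 92.2% ± 3.41 (SD, n = 9), beside 38.5% ± 4.04 (SD, n = 9) of all genes. By length, 21.3% ± 4.58 (SD, n = 9) of the summed windows of the genes lay under a peak, from 16.8% to 27.6%, and 3.12% ± 0.806 (SD, n = 9) of the windows of all genes. The lowest of these 9 values for the splicing genes was above the highest for all genes, 4.21%. These shares pool bases over genes, so long genes weigh more in them. The median gene length was 12.4 kb for the splicing genes and 15.4 kb for all genes, which does not show how many genes are very long. A list of 72 other splicing genes (Snrnp and Lsm proteins, PTB, RBFOX, MBNL and CLK proteins and others) had a peak in 9 of 9 libraries in 54.

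**Figure D1:**
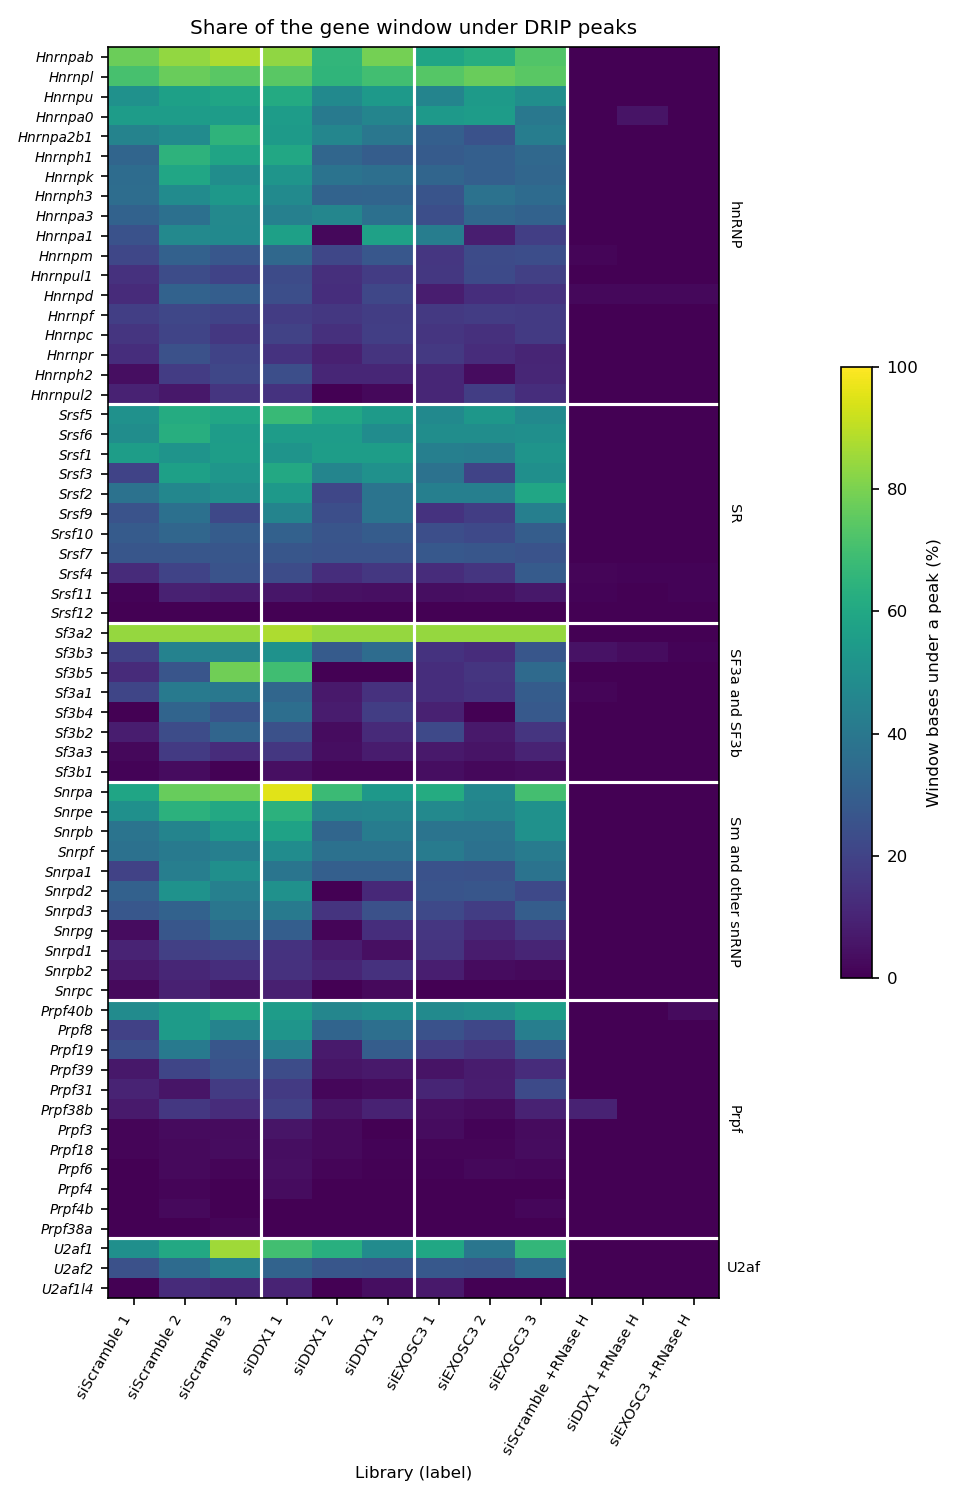
Each row is a gene of the set, with 1 gene not drawn, ordered by family and then by mean coverage, and each column 1 of the 12 libraries, by label. Colour gives the percentage of the gene window under a peak, from 0 to 100. Sf3a2, Hnrnpab and Hnrnpl are bright in all 9 untreated columns, Srsf12 is dark in every column, and the 3 RNase H columns are close to 0 throughout.

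A peak was called in 9 of 9 untreated libraries in 17 of 18 hnRNP genes (94.4%), the highest share of any family, and in 90.9% of SR genes. The mean share of the window covered ran from 10.1% to 74.6% over the hnRNP genes. Hnrnpl, whose product binds CA-rich RNA and regulates exon inclusion, had the longest covered length of the family. It was covered over 11134, 12143 and 11730 bases in the siScramble libraries, 11733, 10314 and 10951 in the siDDX1 libraries, and 11566, 12106 and 11729 in the siEXOSC3 libraries. The 3 labels overlapped, and the 9 values made up 73.1% of the window on average, with a coefficient of variation (CV) of 5.14%. Hnrnpab, which encodes a protein of the AUF1-like group, was covered over 74.6% of its window, the highest share in the family. Peaks covered Hnrnpl in separate stretches. The first began 1.61 kb past the annotated start in 8 of 9 libraries and 1.44 kb past it in siEXOSC3 replicate 2, and a peak reached beyond the annotated end in every untreated library.

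The strongest single peaks also belonged to hnRNP and SR genes. When the peaks of a library were ranked by the fold enrichment that the authors' peak caller gave them, the strongest peak of Hnrnpk stood at the 99.9th percentile ± 0.065 (SD, n = 9), with fold enrichments from 33.9 to 74.9. Hnrnpk binds C-rich nucleic acids in RNA and single-stranded DNA. Hnrnpa3 followed at the 99.8th percentile ± 0.064, with Srsf1 at 99.8 ± 0.085, Srsf7 at 99.7 ± 0.226 and Hnrnpab at 99.6 ± 0.245 (SD, n = 9 each). SRSF1 is the founding SR protein and SRSF7 a zinc-knuckle member that also serves in mRNA export.

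Among the SR genes, 10 of 11 had a peak in 9 of 9 untreated libraries. Srsf4 had the longest mean covered length, 5597 bases, from 3701 to 8628 with a median of 4894. Srsf3 had a mean of 5548 and the higher median, 6315. Srsf7 was nearly constant: 2475 bases in each siScramble library, 2475, 2363 and 2363 in the siDDX1 libraries, and 2536, 2475 and 2363 in the siEXOSC3 libraries (CV 2.63%). Srsf12 was the only gene of the 64 without a peak in any untreated library, where 50.1% of all genes had none. Srsf12 encodes an SR-related protein that represses splicing.

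The spliceosomal families had a peak in 9 of 9 libraries less often, in 9 of 11 snRNP, 6 of 8 SF3, 8 of 13 Prpf and 2 of 3 U2af genes. Sf3a2, which encodes a subunit of the SF3a complex of the U2 snRNP, had the highest share of all 64 genes, 84.7% of its window. It was covered over 7358 bases in 8 of the 9 libraries and over 7659 in siDDX1 replicate 1. Sf3b3, a scaffold protein of SF3b, had the longest covered length of that family and varied widely, with 7515, 17059 and 17176 bases in siScramble, 19610, 11126 and 13560 in siDDX1, and 5711, 4846 and 10259 in siEXOSC3. In contrast, Sf3b1, the largest SF3b subunit and the one that holds the branch point, had 2.28% of its window covered.

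Of the snRNP proteins, Snrpa (the A protein of the U1 snRNP) was covered most, over 5194 to 10775 bases with a median of 7688, or 67.6% of its window. Prpf40b, a WW-domain protein that binds the U1 snRNP, had the longest covered length of all 64 genes, 12388 ± 1158 bases (SD, n = 9). U2af1, whose product contacts the AG of the 3′ splice site, was covered over 8230 ± 1860 bases (SD, n = 9), 60.2% of its window, while its paralogue U2af1l4 had 319 ± 340 (SD, n = 9). The Prpf factors held most of the genes with few peaks. Prpf38a had a peak in 1 untreated library, Prpf4 and Prpf4b in 2 each, and these 3 and Srsf12 were not tested between groups, which left 60 genes.

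The largest variation between libraries, among genes with a peak in 9 of 9, was in Snrpg, Prpf31, Prpf39, Hnrnpa1 and Sf3b2. Snrpg, a core Sm protein, had 306, 2494 and 3189 bases in siScramble, 2808, 131 and 1208 in siDDX1, and 1479, 1039 and 1620 in siEXOSC3 (CV 67.2%). Its lowest values were in siDDX1 replicate 2 and siScramble replicate 1, the libraries with the fewest peaks, 24167 and 23882. Hnrnpa1 had 110 bases in siDDX1 replicate 2 and 3155 in siDDX1 replicate 3, so replicates of 1 label spanned the whole range of the gene.

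Peaks were concentrated at gene starts. A peak within 1 kb of the annotated start was called in all 9 untreated libraries in 33 of the 64 genes (51.6%), where 11.1% of all genes had one. Of the 72 other splicing genes, 29 (40.3%) had one. No start peak was called in any untreated library in 9 genes, where this held for 65.9% of all genes. By family, a start peak in 9 of 9 was present in 14 of 18 hnRNP genes, 8 of 11 SR genes, 2 of 3 U2af genes, 4 of 11 snRNP genes, 2 of 8 SF3 genes and 3 of 13 Prpf genes. The genes just short of this were Snrpb2, Srsf9, Snrpg, Snrpa, Hnrnpa1 and Prpf19, with 8 of 9. Of those with 9 of 9, the shortest median length within 1 kb of the start was that of Hnrnph1, 544 bases in every library, then Hnrnpm with 751 and Hnrnph2 with 845.

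The annotated start of a gene is that of its outermost transcript, and for some of these genes the peak lay at another transcript start. When every annotated transcript start counted, 42 of the 64 genes had a start peak in 9 of 9, where 15% of all genes had one, and 3 had none in any library, where 61.1% of all genes had none. Of the 72 other splicing genes, 39 had one in 9 of 9 and 10 had none. Hnrnpl, Hnrnpf and Srsf11 changed from 0 of 9 libraries to 9 of 9. Hnrnpl has 13 distinct annotated starts, of which 10 lay within 1 kb of a peak in all 9 libraries, and the 2 such starts of Hnrnpf lie 6442 and 7464 bases inside the gene bounds.

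Over the 63 genes longer than 2 kb, 48.2% ± 6.19 of the bases within 1 kb of the start lay under a peak, 23.4% ± 6.56 of those within 1 kb of the end and 17.4% ± 4.21 of those between (SD, n = 9). For the 9303 genes of that length with a peak in at least 3 untreated libraries, the values were 26.0% ± 6.06, 22.2% ± 4.43 and 5.27% ± 1.49 (SD, n = 9). By pooled bases, the splicing genes thus had the higher start and middle values and a like value at the end. Long genes weigh more in these shares, and the lengths of the 9303 genes are not given here. With genes scaled to equal length, the middle bin was 21.8% for the splicing genes. It was 15.5% for all genes with a peak in at least 3 untreated libraries. Between the middle and the end, the splicing genes were the lower in some bins. The 9303 genes were chosen for having peaks and the splicing genes were not. Exons of the splicing genes were covered to 26.9% ± 5.07 and introns to 17.9% ± 4.38 (SD, n = 9). In the 9303 genes the values, again over pooled bases, were 18.7% ± 4.16 and 4.60% ± 1.34 (SD, n = 9). Higher coverage of exons than of introns was thus not particular to the splicing genes.

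**Figure D2:**
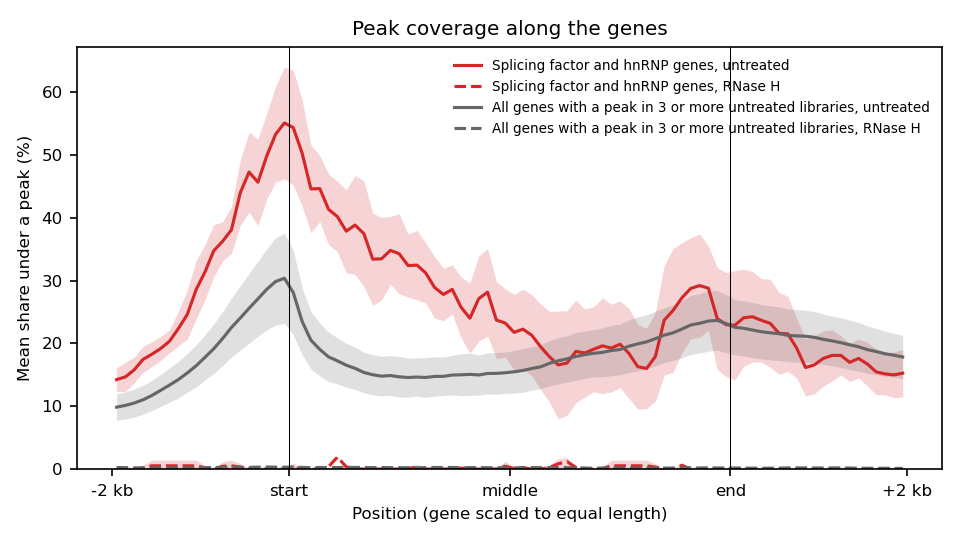
Mean share of the genes under a peak (vertical axis, %) along genes scaled to equal length with 2 kb on either side. Red is the 64 splicing factor and hnRNP genes, grey all genes with a peak in 3 or more untreated libraries, solid lines are the mean of the 9 untreated and dashed lines that of the 3 RNase H-digested libraries, and bands are 1 SD over libraries. Red is highest around the start, at 54.3% in the first bin of the gene. At the middle, red is at 21.8% and grey at 15.5%. Between the middle and the end, red falls below grey and then rises above it. In the last bin the lines are close (23.0% and 23.2%).

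The base composition after the start went with the number of libraries that called a start peak. Over the 500 bases after the start, the median GC content was 69.2% in the 33 genes with a start peak in 9 of 9 libraries, 61.9% in the 22 with 1 to 8, and 59.0% in the 9 with none. The same order held over all genes, at 66.6%, 64.4% and 53.2%. GC skew, the excess of G over C on the sense strand divided by their sum, had medians of 0.11, 0.07 and 0.11 in the 3 classes of splicing genes, which is no steady order. These are descriptions over genes, which are not replicates.

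Within introns, sequence under a peak differed from sequence that was never under one. Intronic bases covered in 9 of 9 untreated libraries (64.1 kb over the 64 genes) had 49.5% GC, a GC skew of 0.10 on the sense strand and 6.57% of bases in runs of 3 or more G. Intronic bases covered in none (551 kb) had 40.4% GC, a skew of 0.04 and 3.10% in such runs. Runs of 3 or more C were also more frequent under peaks, with 4.34% of the bases covered in 9 of 9 and 2.83% of those covered in none. In 30 genes with at least 200 intronic bases of each class, the covered class had the higher GC content in 27, the higher share of G runs in 25 and the higher skew in 22. The distance of these bases from the gene start was not matched between the classes.

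Peak edges often lay exactly where a restriction enzyme cuts. Of all edges of untreated peaks over the 64 genes, 47.5% ± 1.98 (SD, n = 9) fell at a cut position of 1 of the 5 enzymes, where edges of all peaks did so in 31.6% ± 2.21 (SD, n = 9) and cut positions make up 0.171% of the bases in the windows. All 42 edges that were at the same base in 9 of 9 libraries were at a cut, and of 2104 edges seen in 1 library only, 8.98% were. The 6 peaks with both edges identical in at least 8 of 9 libraries, in Hnrnpc, Hnrnpf, Hnrnpr, Hnrnpu, Sf3a2 and Snrpf, each had a cut at both edges. The Sf3a2 peak ran over 9493 bases at chr10:80263902-80273394 and past the end of the gene (plus strand, chr10:80260943-80267669), over Amh. Its edges, shown as an example of a peak with identical edges in 8 libraries, are printed on the plus strand of mm9, chr10:80263882-80263921 and chr10:80273375-80273414, with the BsrGI site in capitals.
Sf3a2 left edge: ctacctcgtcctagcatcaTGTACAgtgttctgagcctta
Sf3a2 right edge: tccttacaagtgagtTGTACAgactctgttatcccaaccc

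RNase H digestion removed nearly all peaks over these genes. The 3 digested libraries had peaks over 9, 4 and 5 of the 64 genes (siScramble, siDDX1 and siEXOSC3), beside 55 to 62 in the untreated libraries. These were 14.1%, 6.25% and 7.81% of the set, where 10.8%, 5.84% and 6.09% of all genes had a digested peak. Digested peaks covered 0.280% ± 0.168 (SD, n = 3) of the summed windows, and 0.117% ± 0.0537 (SD, n = 3) of the windows of all genes. Every digested library was below every untreated one in 50 of the 64 genes, where this held for 25.1% of all genes. Only genes with a peak in every untreated library can meet this. Among such genes it held for 50 of 52 in the set and for 5614 of 5859 over all genes. The contrast with all genes thus mostly restates how often the genes carried a peak. In an exact permutation test over the 64 ways to move the digestion label within groups, 55 of the 60 tested genes were lower after digestion at an adjusted p under 0.05, where 66.1% of the 9666 tested genes were, and 0 were higher, where 0.621% were. With limma in place of the exact test, 57 of 60 were lower, where 73.4% were. Genes were tested if they had a peak in at least 3 untreated libraries. A lower value after digestion is thus in part built into the choice, and genes with a higher one are in part left out. With at least 3 of all 12 libraries instead, again 55 of 60 were lower, where 63.8% of genes were. Of the 10014 genes then tested, 283 were higher. The smallest adjusted p the design gave was 0.0267. For Hnrnpl, covered over 10314 to 12143 bases before and 0 in the 3 digested libraries, the adjusted p had this value. The 5 genes that missed the threshold were Sf3b4, Sf3b5, Prpf38b, U2af1l4 and Snrpc, with adjusted p of 0.0679 to 0.224 by the exact permutation test, and untreated means of 319 to 1259 bases.

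A total of 19 peaks over 11 of the genes were called after digestion, where 13.5% of all genes had such a peak. Hnrnpd, Sf3b3 and Srsf4 had them in 3 of 3 digested libraries, where 3.03% of all genes did. Hnrnpd encodes AUF1, a protein of AU-rich elements whose isoforms come from alternative exons. Its digested peak was identical in all 3 libraries, 476 bases at chr5:100405401-100405876, with fold enrichments of 22.2, 17.8 and 12.1, the 98.8th, 97.8th and 90.9th percentile of their lists. No untreated library had a peak there. The peak began 2081 bases into the gene (minus strand), held an exon of 57 bases, and ended on an XbaI cut on one side and an SspI cut on the other. Its edges and the 236 intronic bases before the exon are printed, because the peak was the same in all 3 digested libraries. The edges are on the plus strand of mm9 (chr5:100405381-100405420 and chr5:100405857-100405896) and the intronic part is on the minus strand (chr5:100405641-100405876). Capitals mark restriction sites, and the intronic part opens inside the SspI site.
Hnrnpd left edge: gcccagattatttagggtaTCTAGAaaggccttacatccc
Hnrnpd right edge: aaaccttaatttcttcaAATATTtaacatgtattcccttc
Hnrnpd intronic part: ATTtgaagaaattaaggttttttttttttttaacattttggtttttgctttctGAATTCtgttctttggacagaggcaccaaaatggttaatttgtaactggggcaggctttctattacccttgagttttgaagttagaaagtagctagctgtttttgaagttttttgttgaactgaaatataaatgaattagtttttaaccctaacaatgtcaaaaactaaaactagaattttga
This intronic part had 28.8% GC and 4 bases in G runs. The whole digested peak had 36.3% GC, beside 36.2% in the intronic bases of Hnrnpd covered in 0 of 9 untreated libraries.

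In Sf3b3 the digested peaks shared their left edge, an XbaI cut at base 113347176 of chromosome 8, and were 1928, 1310 and 318 bases long (siScramble, siDDX1 and siEXOSC3). Srsf4 had digested peaks of 365, 306 and 247 bases that shared an EcoRI edge 2671 bases into the gene, where 1 untreated library had a peak. Srsf11 had one in 2 digested libraries. Single digested libraries had peaks over Hnrnpa0, Hnrnpa3, Hnrnpm, Prpf38b, Prpf40b and Sf3a1, among others. Of the 19 peaks, 6 overlapped a peak in all 9 untreated libraries and 7 in none.

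**Figure D3:**
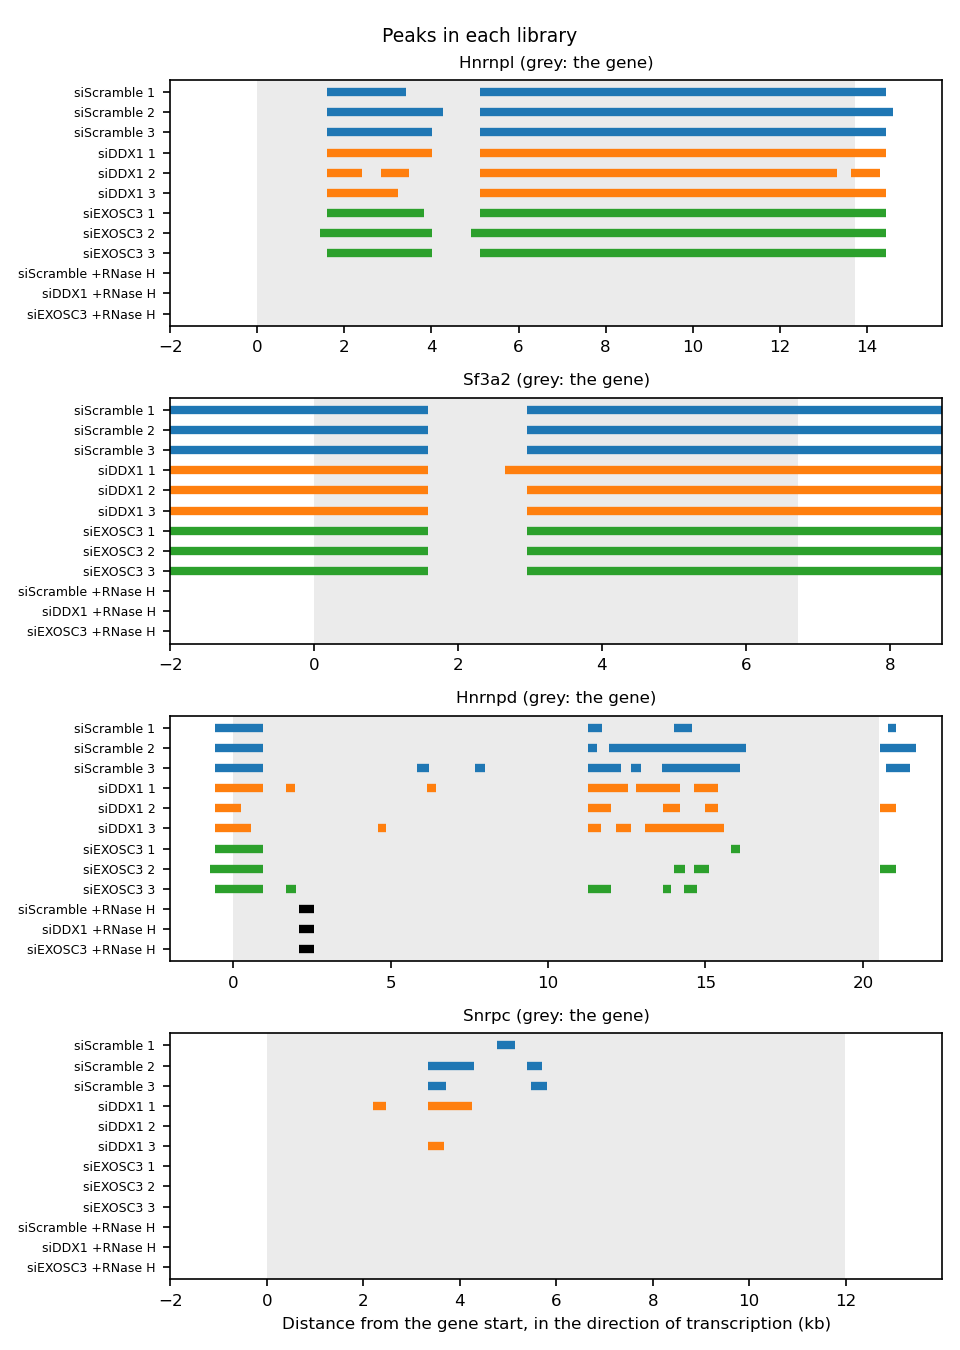
Horizontal bars are the peaks of each of the 12 libraries (rows, by label) over 4 genes, by distance from the annotated gene start in kb, with the gene in grey. In Hnrnpl and Sf3a2 most of the 9 untreated libraries share edges. In Hnrnpd the 3 digested libraries (black) share a peak of 476 bases that no untreated library has. Snrpc has no peak in the 3 siEXOSC3 libraries.

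Whether depletion of DDX1 or EXOSC3 changed R-loops over these genes was asked of the covered length. No gene of the 60 passed an adjusted p of 0.05 in limma's test across the 3 groups, where 0% of the 9666 tested genes did (0 of 9666), and the smallest adjusted p among the 60 was 0.942. At an unadjusted p under 0.05, limma gave 1 of the 60 (Hnrnpa2b1), where 4.62% of genes passed, and the exact permutation test over 280 splits gave 2 (Hnrnpf and Snrpb2), where 3.1% passed, with 0 after adjustment. The 3 comparisons of pairs gave 0 of 60 at an adjusted p under 0.05, where 0% of genes did. At an unadjusted p under 0.05, limma gave 5 genes lower in siEXOSC3 than in siScramble, where 2.38% of genes were, and 0 higher, where 3.47% were. It gave 3 genes lower in siEXOSC3 than in siDDX1, where 1.27% were, and 0 higher, where 4.35% were. For siDDX1 against siScramble it gave 0 in either direction, where 2.14% of genes were lower and 0.662% higher. The exact test of a pair cannot go below p = 0.1. Covered length cannot show a change of signal strength under a peak that all libraries share.

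The values for the 8 genes with the smallest p across groups are given without a claim of change. Hnrnpa2b1, which encodes a reader of RNA with roles in splicing and transport, had 5145, 5527 and 7475 bases in siScramble, 6245, 5240 and 4566 in siDDX1, and 3477, 2897 and 4839 in siEXOSC3. The siEXOSC3 values lay below all siScramble values and overlapped those of siDDX1. The log2 difference of siEXOSC3 from siScramble was -0.64 (SE 0.22, limma, adjusted p = 0.764).

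Snrpb2, the U2B″ protein, had 786, 1279 and 1537 bases in siScramble, 1688, 1237 and 1688 in siDDX1, and 980, 374 and 281 in siEXOSC3. The siEXOSC3 values were below those of siDDX1, with a log2 difference of -1.01 (SE 0.35, limma, adjusted p = 0.807). Sf3b3, given above, had siEXOSC3 values below the 3 siDDX1 values, at a log2 difference of -1.07 (SE 0.39, limma, adjusted p = 0.807).

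Snrpc, the C protein of the U1 snRNP, which stabilises the pairing of U1 RNA with the 5′ splice site, had peaks in 3 of 3 siScramble libraries (361, 1288 and 712 bases), in 2 of 3 siDDX1 libraries (1207, 0 and 331) and in 0 of 3 siEXOSC3 libraries. It was the only gene of the 60 with a peak in 3 of 3 libraries of 1 label and 0 of 3 of another, where 0.197% of genes were lower in this way in siEXOSC3 than in siScramble, and its adjusted p was 0.781 (limma). In the other directions 0 of the 60 did so, where 0.993% of genes did for siEXOSC3 over siScramble, 0.859% and 0.228% for siEXOSC3 over and under siDDX1, and 0.207% and 0.269% for siDDX1 over and under siScramble. Its peaks were of low rank, at the 39.9th percentile ± 28.9 (SD, n = 5) of their lists.

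Of the remaining hnRNP genes, Hnrnpab had 7745, 8378 and 8739 bases in siScramble, 8334, 6568 and 7886 in siDDX1, and 5884, 6225 and 7266 in siEXOSC3. Hnrnpk had 5002, 8390 and 6965, then 7383, 5433 and 5173, then 4647, 4272 and 4714 bases. In both genes the siEXOSC3 values lay below every siScramble value, in Hnrnpk below every siDDX1 value too, with log2 differences from siScramble of -0.34 (SE 0.14) and -0.50 (SE 0.21) and the same adjusted p of 0.833 (limma). Hnrnpa3 and Hnrnpd had mean lengths of 3606 ± 596 and 2659 ± 766 bases in siEXOSC3 beside 4680 ± 954 and 5541 ± 2415 in siScramble (SD, n = 3), and in both the siScramble and siEXOSC3 values overlapped.

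**Figure D4:**
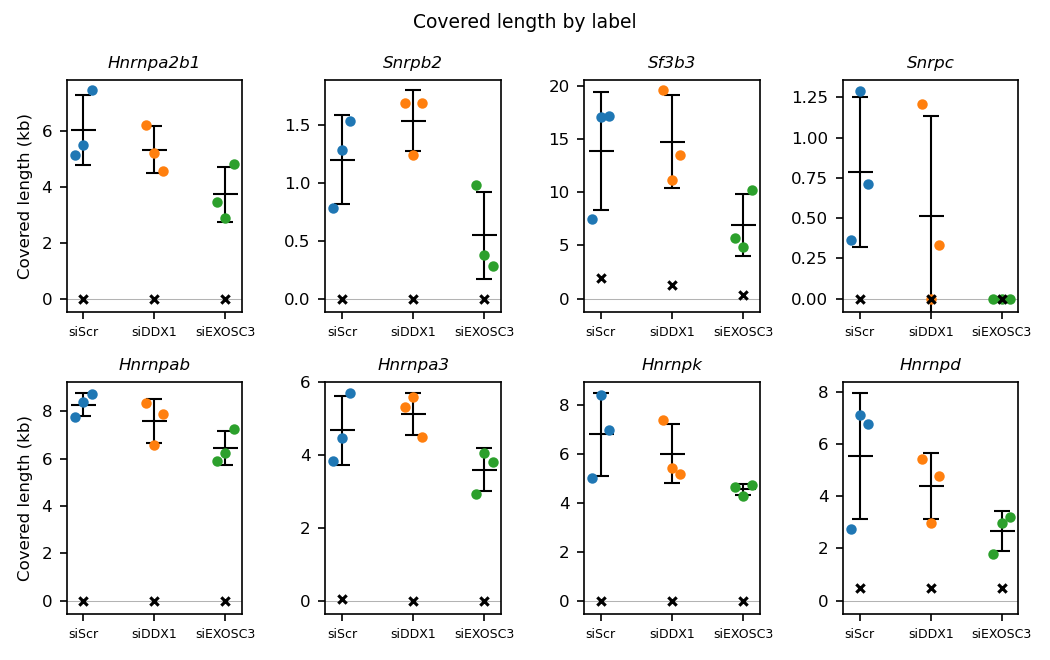
Covered length in kb (vertical axes) of the 8 genes with the smallest p across groups, by label. Dots are the 3 untreated libraries, bars the mean and 1 SD, and crosses the RNase H-digested library. The siEXOSC3 dots are lowest on average in all 8 panels, chosen for their p, and none passed the adjusted threshold.

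Groups of 3 libraries that did not overlap were counted for each pair. The siEXOSC3 values lay below all siScramble values in 6 of the 60 genes (Hnrnpa2b1, Hnrnpab, Hnrnpf, Hnrnpk, Snrpc and Snrpd2), where 4.1% of genes did so. They lay below all siDDX1 values in 5 (Hnrnpa3, Hnrnpk, Sf3b3, Snrpb2 and Srsf5), where 2.73% did so. The siDDX1 values lay below all siScramble values in 1 gene, Hnrnpf, where 2.15% did so. Not a single gene lay above in this way, where 7.4%, 5.83% and 0.941% of all genes did for siEXOSC3 over siScramble, siEXOSC3 over siDDX1 and siDDX1 over siScramble. Without siScramble replicate 1, which had the fewest peaks, 36 of the 60 genes had siEXOSC3 values below both remaining siScramble values, where 28.9% of genes did. In the same setting 11 had siDDX1 values below both, where 21.9% did. Without siDDX1 replicate 1, 14 genes had siDDX1 values below all siScramble values, where 21.9% did, and 7 had siEXOSC3 values above both remaining siDDX1 values, where 34.8% did. Genes with siEXOSC3 below siDDX1 numbered 15 without siDDX1 replicate 2, where 10.3% did so, and 15 without siEXOSC3 replicate 3, where 11.3% did so. Without siEXOSC3 replicate 3, 17 had siEXOSC3 below siScramble, where 12% did.

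Without regard to any threshold, covered length was lower in siEXOSC3 than in siScramble in 52 of the 60 genes, where 50.5% of all tested genes were lower, and the median log2 difference was -0.24 beside 0.00 over all 9666 tested genes. Both moved with single libraries. Without siScramble replicate 1 the count was 55, where 69.1% of all were lower, with medians of -0.42 and -0.22, and without siScramble replicate 3 it was 44, where 38.6% were, with medians of -0.15 and 0.11. The 11 snRNP genes were all lower by sign, and so were 15 of 18 hnRNP genes and 9 of 10 SR genes. For siEXOSC3 against siDDX1, 41 of 60 were lower, where 37.4% of all were, and the medians were -0.12 and 0.12. This direction turned without siDDX1 replicate 1, where 25 of 60 genes and 22.0% of all were lower and the medians were 0.05 and 0.36. Without siDDX1 replicate 2, 51 of 60 and 54.0% of all were lower, with medians of -0.25 and -0.04. For siDDX1 against siScramble, 44 of 60 were lower, where 65% of all were, and the medians were -0.10 and -0.12. Without siDDX1 replicate 2, 31 of 60 and 44.9% of all were lower, with medians of -0.00 and 0.04. Without siScramble replicate 1, 53 of 60 and 83.5% of all were lower, with medians of -0.29 and -0.37, and without siDDX1 replicate 1 again 53, where 83.3% were, with medians of -0.26 and -0.36. These comparisons share libraries and the genes share the libraries too, so the counts describe these 9 libraries. The 66 other splicing genes tested had a median of -0.21 for siEXOSC3 against siScramble, with 48 lower.

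Across all regions formed by merging the untreated peaks, 293 lay over the 64 genes. Of these 29.7% were called in 9 of 9 libraries and 27.0% in 1 of 9, while of the 61332 regions over any protein-coding gene window 11.4% and 44.3% were. The 87 regions called in 9 of 9 had a median width of 3447 bases and 82 of them overlapped an exon. Of the 293, 4 were called in 3 of 3 libraries of 1 label and in 0 of 3 of another, where 2.05% of regions were. They lay in Prpf6 (in siDDX1 only), Prpf38b and Snrpd3 (in 3 siScramble and 0 siEXOSC3 libraries) and Sf3a1 (in 3 siScramble and 0 siDDX1 libraries).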

How the data were processed

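The authors aligned reads to mm9 with Bowtie2 2.4.4, used SAMtools, called peaks for each library with MACS2 2.2.6 against an input, and used DESeq2 and HOMER 4.11 downstream, per the methods and the submitters' processing notes. The deposited lists give positions, fold enrichment as a linear ratio, −log10 p-values and q-values, and a display score, which was not used. The authors seeded 3 plates per condition. The 1 input sample was not analysed here.

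Covered length was computed in Python 3.11.15 with numpy 2.4.6 and pandas 2.3.3 for every protein-coding gene. Values were tested as log2(covered bases + 500) in genes with a peak in at least 3 untreated libraries, with limma 3.58.1 (R 4.3.3, moderated with a trend) between groups and a two-sided exact permutation test for RNase H, and p-values were adjusted by Benjamini-Hochberg over all tested genes. The covered length and tests were checked on simulated data. Sequences came from mm9.

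The members, lists and tests were chosen with earlier results of these data known. Genes named are the leaders of each family by covered length, share or peak rank, those with no peak or a digested peak, those with the smallest p across groups or all-or-none peaks, those with the largest CV, and those next to the 9 of 9 limit at the start. Hnrnpf, Srsf11, Sf3b1, U2af1l4, Snrpd2, Srsf5 and the G-rich genes were added after their values were seen. Alternatives were a stricter q-value, equal peak numbers, joined peaks, no extension, midpoints, other pseudocounts and filters, a replicate block, other tests, leaving out each library, and 2 chosen after seeing the data: a filter over all 12 libraries and any annotated start. The values of 1 gene of the set are not reported here by name.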

Additional observations from a re-analysis of the deposited data

How the results depend on the processing

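No gene of the set passed an adjusted p of 0.05 between groups under any alternative, the exact permutation tests, the replicate block (0 genes in each pair and across the 3 groups) and the omission of each library included. Over all tested genes, omitting siDDX1 replicate 1 gave 38 calls across the 3 groups. It also gave 28 for siDDX1 against siScramble and 66 for siEXOSC3 against siDDX1. Equal peak numbers gave 7 across the groups, 3 for siDDX1 against siScramble and 5 for siEXOSC3 against siScramble. Joined peaks and no extension each gave 2 across the groups and 2 for siEXOSC3 against either other label. A −log10 q of at least 5 gave 1 for siDDX1 against siScramble. None of these calls was in the set. Same-numbered libraries had correlations of deviations from -0.20 to 0.28, and differently numbered ones from -0.36 to 0.21. The values gave no sign that the numbers pair the samples, though so few cannot exclude it. The RNase H count kept to 43 to 57 of the genes under the alternatives and 49 to 52 with a library left out. The lowest was with −log10 q of at least 5, where 59 genes were tested. Of all tested genes, 66.1% were lower in the main setting, 73.4% with limma and 63.8% with the filter over all 12 libraries. That share is not given for the other settings, so their counts have no background beside them. Start peaks in 9 of 9 libraries were present in 17 genes when peaks were assigned by midpoint (33 in the main setting), by construction, as a peak counts at 1 point only; other settings gave 31 to 42. The median covered length was 2981 bases without the window extension (3894 with it), with 3682 to 3984 when a library was left out. Genes whose groups did not overlap, counted in either direction and set beside the share of all tested genes, depended on single libraries. For siDDX1 against siScramble the count was 2 with −log10 q of at least 5 (3.27% of all genes), with equal peak numbers (6.24%) and by midpoint (3.87%), and 1 to 14 with a library left out, the highest without siDDX1 replicate 1 (23.1%) and 11 without siScramble replicate 1 (22.9%). For siEXOSC3 against siScramble it was 10 with equal peak numbers (16.3%) and 10 without the extension (11.1%), and 6 to 36 with a library left out, the highest without siScramble replicate 1 (36.6%), then 17 without siEXOSC3 replicate 3 (20.9%). For siEXOSC3 against siDDX1 it was 1 with −log10 q of at least 5 (7.18%) and 5 to 15 with a library left out, 15 without siDDX1 replicate 2 (16.4%) or siEXOSC3 replicate 3 (18.5%) and 13 without siDDX1 replicate 1 (37.7%). The number of genes with a lower sign in siEXOSC3 than in siScramble was 44 to 55 with a library left out, and the share of all genes moved with it, from 38.6% to 69.1%. The lists hold no read counts, so depth limits cannot be given per gene.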
